A study of Mus musculus with 7 samples.

Results

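Genes of DNA replication and mitosis were examined in colon macrophages of mice with and without cre in the LysM locus. The list held 39 genes, 19 of DNA replication and 20 of mitosis. A gene was measured where a probe set of the array carried its symbol and no other, and the probe set with the highest mean over the arrays was taken. This left 37 genes, 18 of replication and 19 of mitosis, among 22180 genes tested. Ccne2 and Ccnb1 were not analysed here.

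The 4 LysM+/cre samples came from Rictorfl/fl LysM+/cre mice, which carry floxed alleles of Rictor, a subunit of the kinase complex mTORC2, and 1 LysM (Lyz2) allele that drives cre recombinase in myeloid cells. The 3 LysM+/+ samples came from Rictorfl/fl LysM+/+ mice, which carry the same floxed alleles and no cre. All mice had received 5% dextran sulphate sodium for 5 days, which injures the colon epithelium, and then plain water for 3 days, and the cells sorted from the lamina propria lacked Ly6C and carried MHC class II, CD64, CD11b and CD45. No group had cre without floxed Rictor, so loss of Rictor, cre itself and its insertion into Lyz2 cannot be told apart. The labels give neither the age of the mice nor whether samples were pooled from several animals.

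Replication is licensed in G1, when CDC6 and CDT1 load the MCM helicase onto origins, and starts when cyclin-dependent kinases switch the helicase on. E2F factors drive the replication genes at the G1/S boundary, and a later programme, under MuvB complexes with B-MYB and FOXM1, drives the mitosis genes through CHR elements and the CCAAT boxes bound by NF-Y. Colon macrophages are largely renewed from blood monocytes and divide little in the adult, and some resident macrophage pools renew themselves by division.

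The 7 arrays had median log2 signals from 5.16 to 5.22. Rictor gave 7.72, 7.76, 8.25 and 7.80 on LysM+/cre arrays 1 to 4, against 7.76, 7.74 and 7.80 on LysM+/+ arrays 1 to 3. The exons read by this probe set are unknown here, and so it checks no label. Of 12 measured gate and macrophage markers, 5 were higher and 7 lower on LysM+/cre arrays, with a median difference of -0.031. Single markers differed more. At an unadjusted p under 0.05 by limma, 2 (16.7%) were higher, against 6.56% of all genes, and 1 (8.33%) lower, against 4.93%. The higher ones were Fcgr1 (0.97 ± 0.26, SE) and the CD11b gene Itgam (0.53 ± 0.19, SE), and the lower one Cd68. The CD64 gene Fcgr1 lay between 10.28 and 11.10 on LysM+/cre arrays and between 9.49 and 10.28 on LysM+/+ arrays, and the CD45 gene Ptprc lay above 10 on every array. The macrophage gene Cd68 lay between 11.79 and 12.03 on LysM+/cre arrays and, without overlap, between 12.05 and 12.22 on LysM+/+ arrays, and Cx3cr1 ranged from 7.81 to 10.29 over all arrays. No gene of the 22180 passed an adjusted p of 0.05 by limma, where the smallest was 0.195 and 2549 genes had an unadjusted p under 0.05. With 4 and 3 arrays, precision is limited by their number.

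The promoters of these genes are shown because the classes differ in the motifs they hold. RefSeq promoters of build GRCm38.p6, from 250 bases before to 50 after each start, were listed for 29 of the 37 measured genes and for 27025 genes in all. Printed are the 250 bases before the start of the replication genes Mcm5 (chr8:75109259-75109508, plus strand), Rrm2 (chr12:24708004-24708253, plus strand) and Mcm2 (chr6:88898781-88899030, minus strand), which were among the members with the smallest p-values, and of the mitosis genes Top2a (chr11:99024190-99024439, minus strand), Cdk1 (chr10:69352913-69353162, minus strand) and Mki67 (chr7:135716380-135716629, minus strand). Capitals mark motif letters on either strand: an E2F core (TTGGCGC or its variants TTCGCGC and also TTCCCGC besides TTGCCGC), a CHR (TTTGAA) or an NF-Y box (CCAAT).
Mcm5: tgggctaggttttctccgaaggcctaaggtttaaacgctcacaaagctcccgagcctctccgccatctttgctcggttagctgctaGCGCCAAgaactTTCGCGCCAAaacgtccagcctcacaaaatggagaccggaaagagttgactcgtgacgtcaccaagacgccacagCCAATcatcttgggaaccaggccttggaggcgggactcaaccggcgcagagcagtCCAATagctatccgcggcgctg
Rrm2: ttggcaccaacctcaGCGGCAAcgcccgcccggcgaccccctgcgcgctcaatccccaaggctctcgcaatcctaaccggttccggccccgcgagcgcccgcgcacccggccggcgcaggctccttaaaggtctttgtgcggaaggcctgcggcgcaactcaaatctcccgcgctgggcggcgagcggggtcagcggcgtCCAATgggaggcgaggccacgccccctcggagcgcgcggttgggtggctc
Mcm2: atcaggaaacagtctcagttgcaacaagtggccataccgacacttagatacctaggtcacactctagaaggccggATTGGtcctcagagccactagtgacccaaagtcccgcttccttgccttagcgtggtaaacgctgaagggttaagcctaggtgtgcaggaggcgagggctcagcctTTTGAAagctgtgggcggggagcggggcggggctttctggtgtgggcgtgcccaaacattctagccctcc
Top2a: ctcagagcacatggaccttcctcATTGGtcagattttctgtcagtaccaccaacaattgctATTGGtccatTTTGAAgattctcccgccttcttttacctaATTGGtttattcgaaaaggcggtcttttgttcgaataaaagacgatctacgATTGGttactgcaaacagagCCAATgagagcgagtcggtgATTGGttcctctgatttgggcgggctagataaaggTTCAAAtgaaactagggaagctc
Cdk1: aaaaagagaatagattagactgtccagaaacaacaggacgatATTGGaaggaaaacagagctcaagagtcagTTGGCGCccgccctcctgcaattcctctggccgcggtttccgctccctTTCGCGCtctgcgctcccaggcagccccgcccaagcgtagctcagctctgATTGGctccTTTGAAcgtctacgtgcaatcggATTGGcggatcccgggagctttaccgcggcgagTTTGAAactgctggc
Mki67: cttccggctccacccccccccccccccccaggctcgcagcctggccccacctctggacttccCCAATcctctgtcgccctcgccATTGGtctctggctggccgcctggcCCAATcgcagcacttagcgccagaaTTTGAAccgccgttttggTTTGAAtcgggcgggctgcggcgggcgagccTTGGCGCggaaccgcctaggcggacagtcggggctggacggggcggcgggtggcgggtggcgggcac

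An E2F core was found in the promoters of 9 of 15 replication genes (60%) and 2 of 14 mitosis genes (14.3%), against 10.9% of all genes with a listed promoter. A CHR was found in 1 of 15 replication genes (6.67%) and 11 of 14 mitosis genes (78.6%), against 20.2% of all genes. An NF-Y box was found in 9 of 15 replication genes and 13 of 14 mitosis genes (92.9%), against 41.1% of all genes. Cell cycle genes outside the list had similar shares. Of 36 other replication genes with a listed promoter, 58.3% held an E2F core and 19.4% a CHR. Of 46 other mitosis genes these shares were 26.1% and 67.4%. Among 13 genes for G1 cyclins, their kinases and E2F factors, 61.5% held an E2F core. Upstream of Mcm5 the E2F cores began at positions -164, -152 and -149 from the start, the last pair sharing letters. Mcm2 held none of the E2F core letters in this window and was the replication gene with a CHR, at -70. Top2a held a CHR at -179 and another at -23, with 6 NF-Y boxes. Cdk1 and Mki67 were the mitosis genes that held both an E2F core and a CHR. In Mcm7 an E2F core and an NF-Y box shared letters. These matches describe letters and show no binding.

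**Figure D1:**
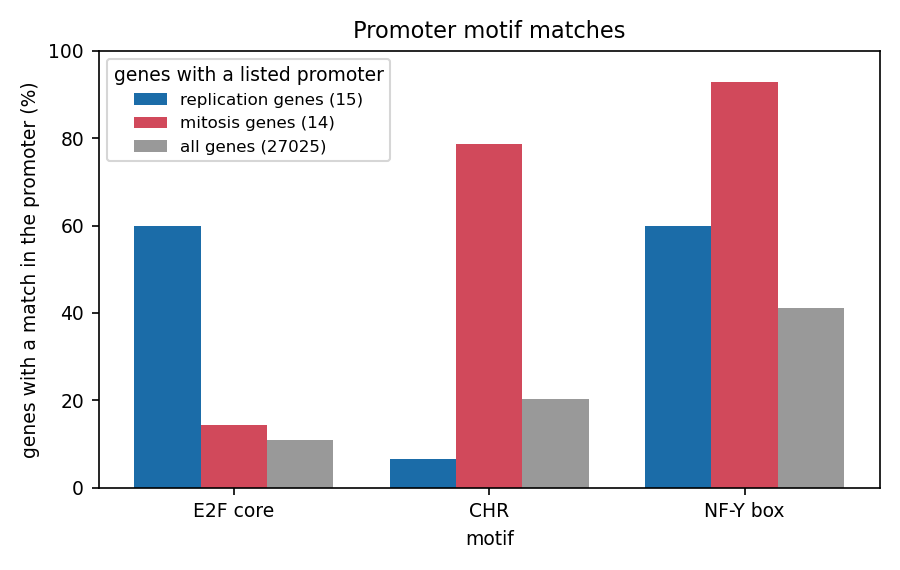
Percentage of genes with a motif match in the listed promoter (y axis) for 3 motifs (x axis), with bars for 15 replication genes, 14 mitosis genes and all 27025 genes with a listed promoter. E2F cores are more frequent in replication genes (60%) than in all genes (10.9%), and CHR matches in mitosis genes (78.6% against 20.2%). Replication and mitosis genes outside the list, not drawn, held them in 58.3% and 67.4%.

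Replication genes had higher signals on LysM+/cre arrays than on LysM+/+ arrays, by a median log2 difference of 0.35 over 18 genes with 16 of them higher, against a median of 0.0044 and 51.3% higher over all genes tested. The mitosis genes differed by a median of 0.16, with 15 of 19 higher. No member passed the adjustment over all genes. Of the members, 5 of 37 (13.5%) were higher at an unadjusted p under 0.05, against 6.56% of all genes, and 0 of 37 were lower, against 4.93%. All 5 were replication genes: Gmnn, Gins2, Rrm2, Mcm2 and Mcm5. All LysM+/cre values lay above all LysM+/+ values for 6 of 37 members (16.2%), those 5 and Mcm4, against 5.23% of all genes. They lay below for 0 of 37, against 3.56% of all genes. In bulk RNA, more cycling cells and more of these transcripts per cycling cell cannot be told apart.

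**Figure D2:**
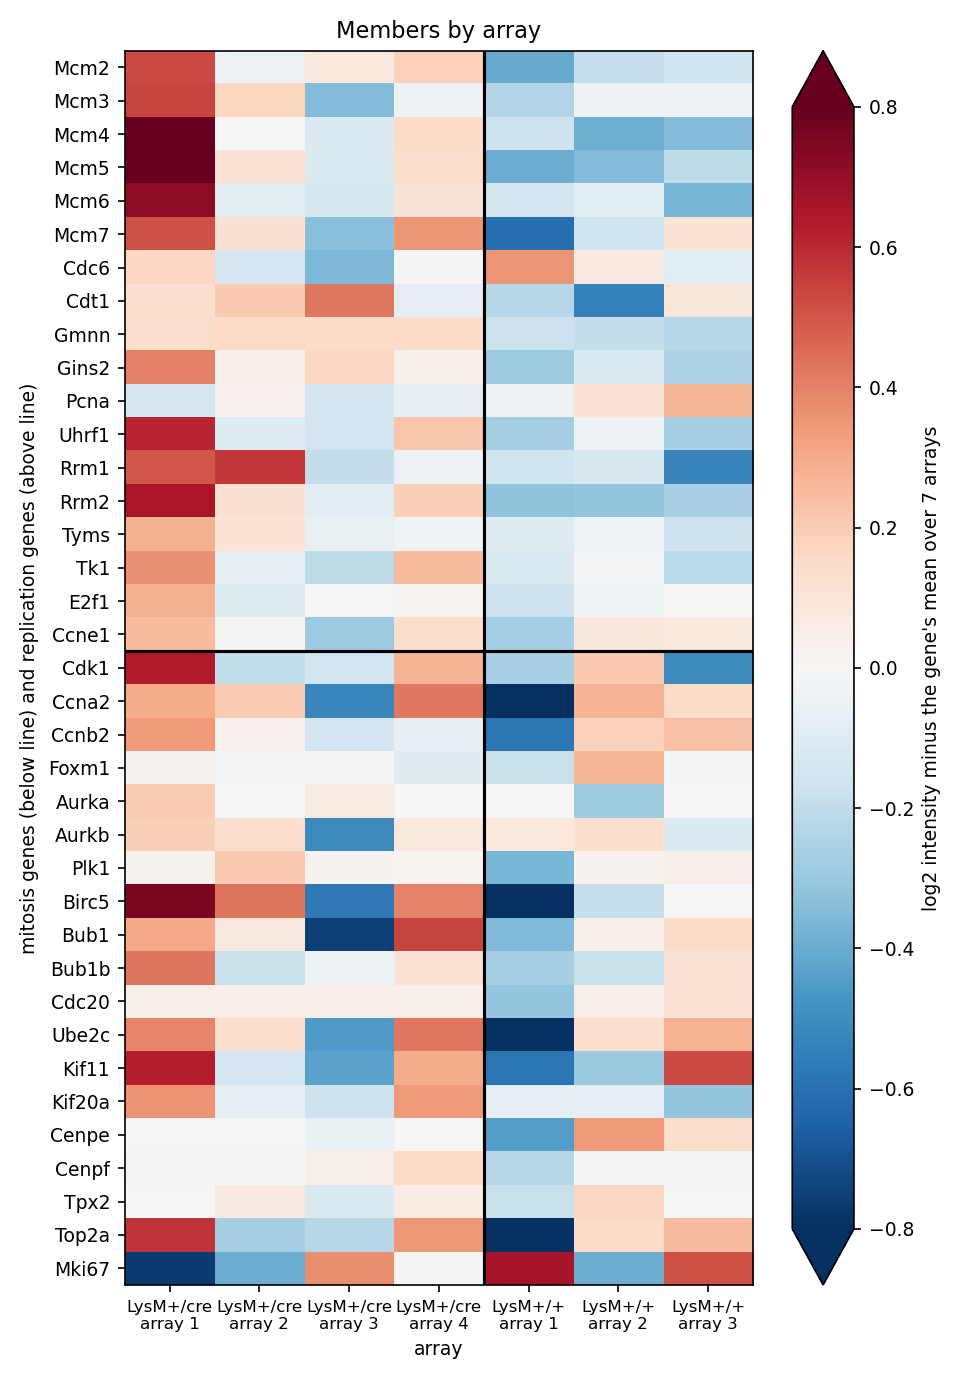
Log2 intensity of each of the 37 members minus its mean over the 7 arrays (colour, log2 units, saturating at 0.8 either way), with LysM+/cre arrays left of LysM+/+ arrays and replication genes above mitosis genes. LysM+/cre array 1 holds the highest value of 22 members and LysM+/+ array 1 the lowest of 20, and Mki67 runs against the other mitosis genes.

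The 10 licensing and helicase genes had the highest median difference of the larger role groups, 0.38, with 9 higher. Gmnn encodes geminin, which binds CDT1 and blocks a further round of licensing. Its log2 signal was 6.89, 6.91, 6.90 and 6.89 on LysM+/cre arrays 1 to 4, against 6.58, 6.56 and 6.52 on LysM+/+ arrays 1 to 3. The 4 LysM+/cre arrays were nearly identical and all lay above the 3 LysM+/+ arrays. The difference was 0.35 ± 0.049 (SE, 1.27-fold), with an unadjusted p of 0.000226 and an adjusted p of 0.303 by limma. With a per-gene variance in place of the moderated one, its adjusted p was 0.0484, which rests on an SD of 0.0085 (n = 4) on the LysM+/cre arrays and of 0.031 (n = 3) on the LysM+/+ arrays, and 2 genes in all (0.00902%) passed that test.

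Gins2, a subunit of the GINS complex that activates the MCM helicase, gave 6.63, 6.27, 6.39 and 6.27 on LysM+/cre arrays 1 to 4, against 5.94, 6.11 and 5.98 on LysM+/+ arrays 1 to 3. Every LysM+/cre array lay above every LysM+/+ array, and the difference was 0.38 ± 0.11 (SE, adjusted p = 0.382 by limma). Mcm2, a helicase subunit, gave 7.87, 7.29, 7.42 and 7.52 with cre, against 6.93, 7.15 and 7.18 without. The groups did not overlap, LysM+/cre array 1 stood highest, and the difference was 0.44 ± 0.14 (SE, adjusted p = 0.406 by limma). Mcm5, another subunit, gave 7.83, 7.14, 6.93 and 7.18 with cre, against 6.64, 6.69 and 6.83 without, a difference of 0.55 ± 0.21 (SE, adjusted p = 0.415 by limma). Its groups did not overlap, but LysM+/cre array 3 lay only a little above LysM+/+ array 3. Without LysM+/+ array 1 the differences were 0.36 for Mcm2 and 0.51 for Mcm5, and neither had an unadjusted p under 0.05.

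The other helicase subunits differed by 0.53 (Mcm4), 0.38 (Mcm7), 0.35 (Mcm6) and 0.19 (Mcm3). Mcm4 stood at 8.58 on LysM+/cre array 1 and between 7.60 and 7.86 on the other LysM+/cre arrays, against 7.33 to 7.55 on LysM+/+ arrays. The loading factor genes went opposite ways, with Cdt1 at 0.40 and Cdc6 at -0.19. Of the 10 licensing genes, 1, Cdc6, had a lower mean on LysM+/cre arrays. Cdt1 was highest on LysM+/cre array 3, at 8.06, the LysM+/cre array on which 5 of the 6 MCM genes were lowest.

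Genes of deoxynucleotide supply, 4 in number, were all higher on LysM+/cre arrays, with a median difference of 0.34. Rrm2, the regulated subunit of ribonucleotide reductase, gave 5.95, 5.42, 5.22 and 5.49 with cre, against 4.98, 4.99 and 5.04 without. The LysM+/+ arrays lay within 0.1 of each other and below every LysM+/cre array, and the difference was 0.52 ± 0.16 (SE, adjusted p = 0.396 by limma). A dimmer probe set of Rrm2, with values between 2.95 and 3.46, differed by 0.14 ± 0.12 (SE), and there only LysM+/cre array 1 stood apart. Rrm1, the large subunit, differed by 0.48, and Tk1 (thymidine kinase) and Tyms (thymidylate synthase) by 0.20 and 0.17, each with overlapping groups.

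Pcna, the sliding clamp of the replication fork, ran the other way. It gave 10.43, 10.61, 10.41 and 10.496 with cre, against 10.53, 10.68 and 10.83 without, a difference of -0.20 ± 0.090 (SE, adjusted p = 0.455 by limma). The groups overlapped through LysM+/cre array 2. Uhrf1, which carries DNA methylation through replication, differed by 0.34 with LysM+/cre array 1 highest at 6.91. At the G1/S switch, the activator gene E2f1 gave 7.31, 6.94, 7.03 and 7.06 with cre, against 6.87, 6.996 and 7.03 without. Apart from LysM+/cre array 1 these values overlapped, and the difference was 0.12 ± 0.10 (SE, adjusted p = 0.658 by limma). The cyclin E1 gene Ccne1 differed by 0.060.

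For 0 of the 19 mitosis genes did the LysM+/cre arrays lie wholly above or below the LysM+/+ arrays, against 5.23% and 3.56% of all genes. At an unadjusted p under 0.05, 0 of 19 were higher and 0 lower, against 6.56% and 4.93%, so that in 19 genes a count of 0 is near the share over all genes. Cdk1, the kinase that starts mitosis, gave 7.15, 6.31, 6.36 and 6.78 with cre, against 6.25, 6.72 and 5.996 without. The groups overlapped, and the difference was 0.33 ± 0.25 (SE, adjusted p = 0.638 by limma). Its cyclin partner genes Ccna2 and Ccnb2 differed by 0.23 and 0.092, and Foxm1, the transcription factor of the mitotic programme, by -0.046.

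Among mitotic kinases and their partners, Birc5 (survivin, of the chromosomal passenger complex) had the largest mean difference of all members, with wide spread. It gave 6.22, 5.89, 4.89 and 5.86 with cre, against 4.65, 5.28 and 5.46 without. LysM+/cre array 3 lay among the LysM+/+ arrays, and the difference was 0.59 ± 0.34 (SE, adjusted p = 0.544 by limma). Aurora kinase genes differed by 0.16 (Aurka) and -0.063 (Aurkb), and the polo-like kinase gene Plk1 by 0.17.

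The checkpoint and anaphase-promoting complex genes were all 4 higher on average and overlapped throughout. Bub1b, a checkpoint kinase gene, gave 6.78, 6.18, 6.31 and 6.46 with cre, against 6.09, 6.18 and 6.46 without, a difference of 0.19 ± 0.16 (SE, adjusted p = 0.661 by limma). Ube2c, the ubiquitin-conjugating enzyme of the complex, differed by 0.28, its activator gene Cdc20 by 0.095 and the checkpoint kinase gene Bub1 by 0.093. Cdc20 was listed at exactly 6.55428 on 5 arrays, all 4 LysM+/cre arrays among them. Such repeats occur throughout the table: 10 of 19 mitosis genes and 4 of 18 replication genes had the same value on at least a pair of arrays, as had 53.8% of all genes tested.

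For genes of the spindle, kinetochores and chromosomes the median difference was 0.13. Kif20a, a kinesin of the central spindle, gave 6.14, 5.71, 5.62 and 6.13 with cre, against 5.71, 5.71 and 5.47 without, a difference of 0.27 ± 0.16 (SE, adjusted p = 0.544 by limma). Top2a, the topoisomerase that untangles sister chromatids, gave 6.06, 5.22, 5.25 and 5.83 with cre, against 4.65, 5.64 and 5.73 without. LysM+/+ array 1 was the lowest and the other LysM+/+ arrays lay inside the LysM+/cre range, so that the difference of 0.25 ± 0.33 (SE, adjusted p = 0.784 by limma) was -0.092 without LysM+/+ array 1. The spindle motor gene Kif11 differed by 0.21, the kinetochore genes Cenpf and Cenpe by 0.13 and -0.024, and Tpx2, a spindle assembly factor, by 0.0024.

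Mki67, which encodes the proliferation antigen Ki-67, ran against the rest. It gave 9.18, 9.55, 10.32 and 9.95 with cre, against 10.60, 9.54 and 10.45 without, a difference of -0.45 ± 0.35 (SE, adjusted p = 0.635 by limma). The stretch of the transcript that its probe set reads is unknown here. Mki67 was lowest on LysM+/cre array 1, where 22 of the 37 members were highest, and highest on LysM+/+ array 1, where 20 members were lowest. Across the 7 arrays its mean Pearson correlation with the other 36 members was -0.55, where all pairs of members averaged 0.38. The next lowest means belonged to Pcna (-0.16) and Cdc6 (-0.047).

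**Figure D3:**
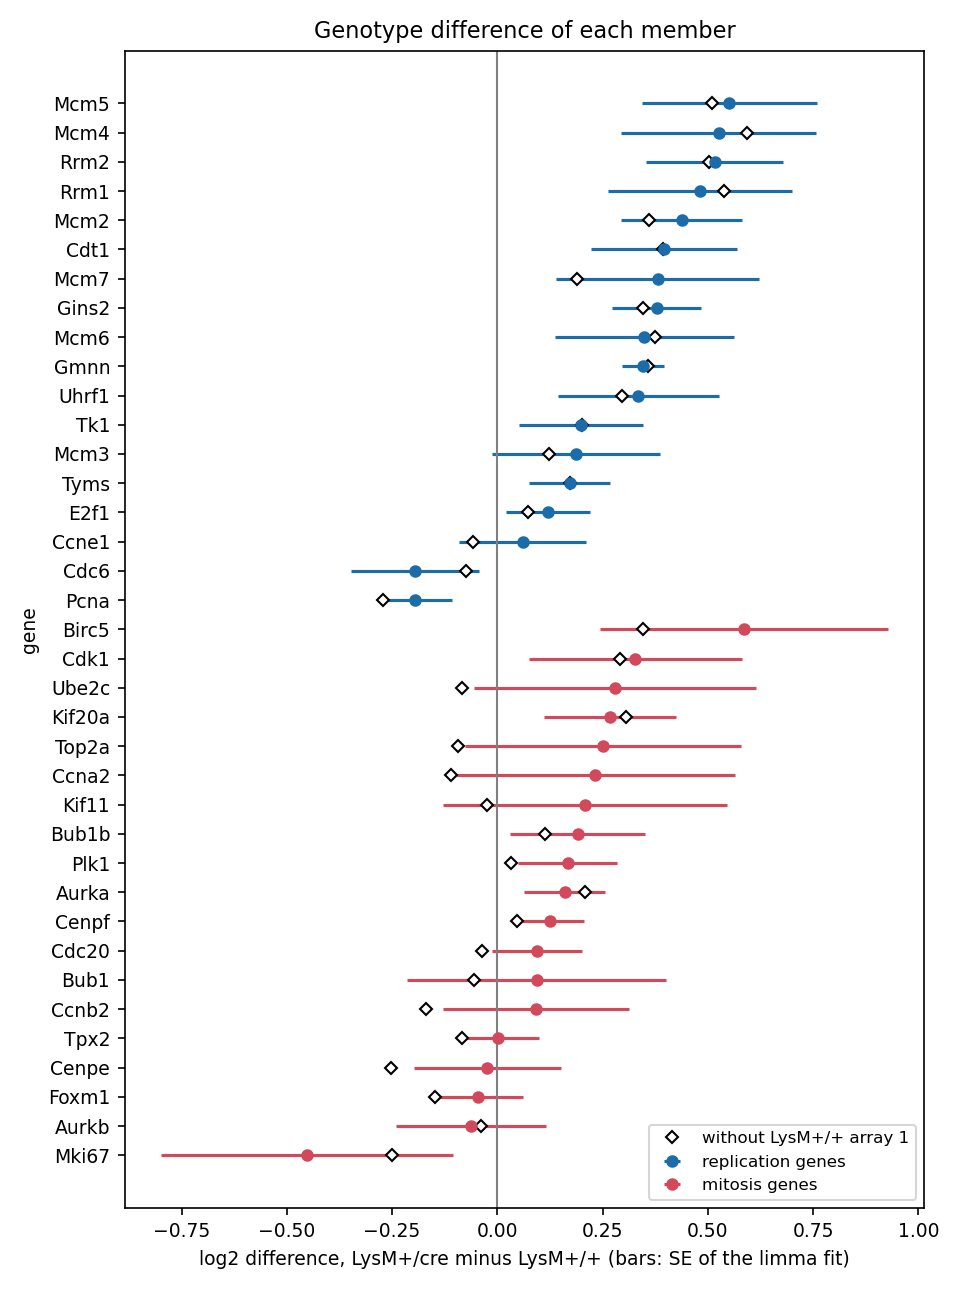
Log2 difference, LysM+/cre minus LysM+/+ (x axis; bars are the SE of the limma fit on 7 arrays), for each gene (y axis), with open diamonds for the fit without LysM+/+ array 1. Most replication genes stay to the right of 0 without that array, while many mitosis genes move across it.

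Members varied together over the arrays. The mean correlation was 0.49 over 153 pairs of replication genes, 0.37 over 171 pairs of mitosis genes and 0.33 between the classes, against 0.0015 over all pairs of genes tested. These values describe pairs that share the same 7 arrays. With the genotype means removed, the mean over all pairs of members was 0.32. There the mean with the other members was negative for Mki67 (-0.49), Gmnn (-0.33) and Cdt1 (-0.24).

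The same arrays set both classes at their extremes. LysM+/cre array 1 had the highest value of 13 of 18 replication genes and 9 of 19 mitosis genes, where 17.1% of all genes were highest. LysM+/+ array 1 had the lowest value of 13 of 19 mitosis genes and 7 of 18 replication genes, where 12.4% of all genes were lowest. A score was also computed for each class on each array, by averaging how far its genes lay from their own 7-array means. The replication score was 0.42, 0.062, -0.095 and 0.092 on LysM+/cre arrays 1 to 4, against -0.21, -0.13 and -0.14 on LysM+/+ arrays 1 to 3. The LysM+/+ arrays lay close together and below all LysM+/cre arrays. The mitosis score was 0.23, 0.0037, -0.19 and 0.18 with cre, against -0.34, 0.029 and 0.084 without. Here LysM+/+ arrays 2 and 3 lay within the LysM+/cre range. The replication score averaged 0.12 ± 0.22 on LysM+/cre arrays (SD, n = 4) and -0.16 ± 0.040 on LysM+/+ arrays (SD, n = 3). The mitosis score averaged 0.056 ± 0.19 on LysM+/cre arrays (SD, n = 4) and -0.075 ± 0.23 on LysM+/+ arrays (SD, n = 3).

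Without LysM+/+ array 1 the medians of the classes lay further apart. The median difference of replication genes was 0.32, with 15 of 18 higher, whereas that of mitosis genes was -0.039, with 7 of 19 higher, against 52.5% of all genes. At an unadjusted p under 0.05, Gmnn, Gins2 and Rrm2 were higher (3 of 37, or 8.11%, against 7.02% of all genes), and Pcna and Cenpe lower (2 of 37, or 5.41%, against 5.51%). The arrays did not overlap for 6 members that were higher, against 11.3% of all genes, and for 2 that were lower, against 8.8%. The replication median exceeded the mitosis median by 0.19 with all arrays, by 0.36 without LysM+/+ array 1, by 0.12 without LysM+/+ array 3 and by 0.13 without LysM+/cre array 1. Without LysM+/cre array 1 the replication median was 0.22 and the mitosis median 0.093. LysM+/+ array 1 held the lowest value of 13 of 19 mitosis genes and 7 of 18 replication genes. Leaving it out must lower the differences of those genes, so the wider gap without it follows in part from the choice of array. The difference between the class medians was not tested. Members without a listed promoter, Gmnn, Gins2 and Mcm4 among them, were left out of the next medians. The 11 members with an E2F core, 9 of them replication genes, had a median difference of 0.35 with all arrays. Without LysM+/+ array 1 it was 0.30, and the 18 members without a core had 0.16 and 0.0036. The 12 members with a CHR had 0.18 and 0.0036, and the 17 without a CHR 0.20 and 0.19. The part of the motifs was not tested.

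**Figure D4:**
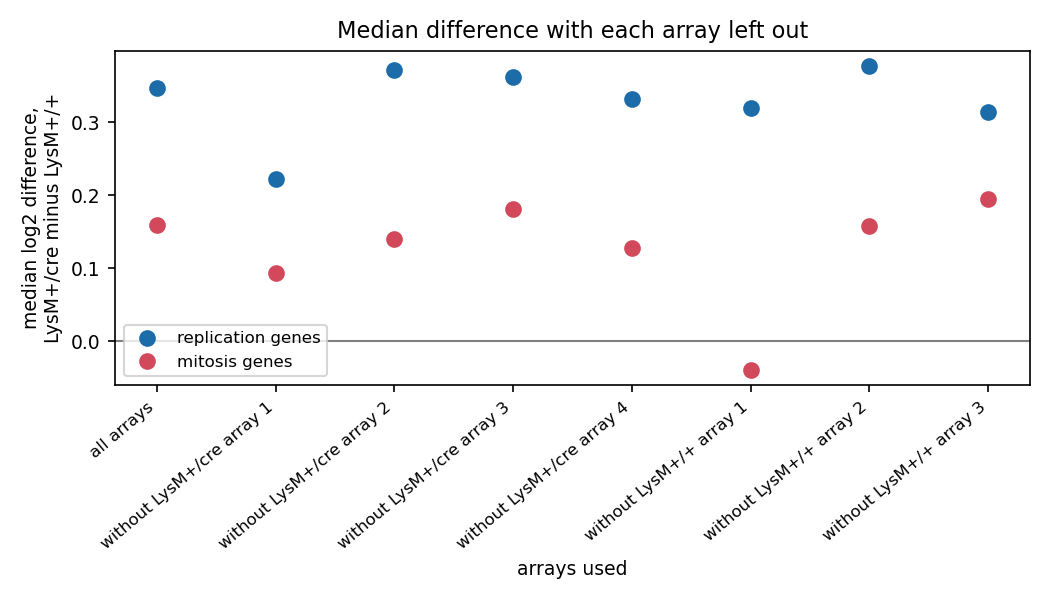
Median log2 difference, LysM+/cre minus LysM+/+ (y axis), of the 18 replication and 19 mitosis genes with all 7 arrays and with each array left out in turn (x axis). Replication genes range from 0.22 to 0.38, and mitosis genes from -0.039 without LysM+/+ array 1 to 0.19.

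Of 43 further replication genes, 30 were higher, and the median difference over the 43 was 0.067. At an unadjusted p under 0.05, 6 (14.0%) were higher and 0 lower, against 6.56% and 4.93% of all genes. Those of smallest p were Gins4, another GINS subunit (0.41 ± 0.10), the chromatin assembly gene Chaf1b (0.43 ± 0.13) and Rpa1, which binds single-stranded DNA (0.32 ± 0.095, but 0.13 with the mean of all its probe sets). Of 53 further mitosis genes, 36 were higher, and the median difference over the 53 was 0.035. At that threshold 3 (5.66%) were higher and 1 (1.89%) lower, shares below those over all genes. Those of smallest p were the securin gene Pttg1 (-0.34 ± 0.13) and the checkpoint genes Mad2l1 (0.31 ± 0.12) and Bub3 (0.54 ± 0.21). The errors are SEs, and no gene here passed the adjustment over all genes.

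Of 18 genes for G1 cyclins, their kinases and E2F factors, 11 were higher, and the median difference over the 18 was 0.17. At an unadjusted p under 0.05, 5 (27.8%) were higher and 1 (5.56%) lower, against 6.56% and 4.93% of all genes. Tfdp1, the dimer partner of E2F proteins (0.29 ± 0.072), E2f4 (0.41 ± 0.11) and E2f8 (0.38 ± 0.12), both known as repressors, had the smallest p-values, and the cyclin D1 gene Ccnd1 stood at -0.048 ± 0.47. The 19 genes listed as brakes had a median of -0.013, with 2 (10.5%) higher and 2 (10.5%) lower at that threshold. The list is mixed, since it holds subunits of MuvB, which also takes part in driving the mitosis genes. The 2 higher were the MuvB subunit gene Lin54 (0.55 ± 0.18) and the CDK inhibitor gene Cdkn1b (0.53 ± 0.21). The 2 lower were the pocket protein gene Rbl2 (-0.21 ± 0.062) and the antiproliferative gene Btg2 (-0.58 ± 0.22). Cdkn1a, which encodes the CDK inhibitor p21, stood at 0.23 ± 0.13.

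Markers of other cells moved with these scores on some arrays. All 5 measured markers of Ly6C+ monocytes, cells that the gate was set to leave out, were higher on LysM+/cre arrays, and their score was 0.96, 0.19, 0.27 and 0.56 on LysM+/cre arrays 1 to 4, against -0.50, -1.16 and -0.32 on LysM+/+ arrays 1 to 3. LysM+/cre array 1 was highest in this score and in both cell cycle scores. The monocyte receptor gene Ccr2 gave 9.49, 8.21, 6.82 and 9.03 with cre, against 6.21, 8.21 and 7.53 without, lowest on LysM+/+ array 1, as were Ly6c2 and the mitosis score. The other 3 monocyte markers, Plac8, Vcan and Chil3, were lowest on LysM+/+ array 2, as was the monocyte score. Taken singly, 0 of the 5 lay wholly higher on LysM+/cre arrays, against 5.23% of all genes. At an unadjusted p under 0.05 by limma, 1 of the 5 (20%) was higher, against 6.56%, and 0 lower, against 4.93%. That marker was Ly6c2 (1.09 ± 0.41, SE), and the median difference of the 5 was 1.07. Chil3 stood at 9.56 on LysM+/cre array 3 and between 3.34 and 7.06 on the other arrays. Ccr2, Plac8 and Vcan were lower on LysM+/cre array 3 than on LysM+/+ array 3, and Ly6c2 and Chil3 higher. Of 14 colon epithelium markers 11 were lower on LysM+/cre arrays, with scores of -0.12, 0.51, -0.17 and -0.54 against -0.69, 0.57 and 0.44. Their median difference was -0.17 with all arrays and -0.71 without LysM+/+ array 1, with 3 of 14 higher either way. Without that array 5 (35.7%) were lower at an unadjusted p under 0.05 by limma, against 5.51% of all genes. The same 5 lay wholly lower, against 8.8%. In that setting 0 were higher by either measure, against 7.02% and 11.3%. LysM+/+ array 1 was lowest in the epithelial and the mitosis score, but LysM+/cre array 4 had a low epithelial and a high mitosis score. Of the genes in that list known from intestinal crypts, Lgr5 lay between 4.45 and 4.67 over the 7 arrays, with a difference of -0.034. Ascl2 lay between 4.51 and 5.27 (0.092) and Olfm4, which is not specific to colon stem cells, between 4.25 and 5.98 (0.38). Brighter markers of that list included Muc2, between 8.01 and 11.14 (-0.17), and Cdh1, between 7.53 and 9.07 (-0.19). At an unadjusted p under 0.05 by limma, 1 of 14 (7.14%) was lower, against 4.93% of all genes, and 0 higher, against 6.56%. The lower one was Slc26a3 (-1.07 ± 0.41, SE). Of 10 fibroblast and smooth muscle markers 8 were lower, with scores between -0.40 and 0.10 on LysM+/cre arrays and between 0.092 and 0.43 on LysM+/+ arrays. At an unadjusted p under 0.05 by limma, 4 (40%) were lower, against 4.93% of all genes, and 0 higher, against 6.56%. Only Dcn (10%) lay wholly lower, against 3.56%. It lay between 9.64 and 10.45 on LysM+/cre arrays and between 10.94 and 11.93 on LysM+/+ arrays (-1.38 ± 0.27, SE). All 8 neutrophil markers were higher, with scores between -0.50 and 1.59 on LysM+/cre arrays and between -1.70 and 0.43 on LysM+/+ arrays. Scores of the 7 endothelial, 8 T and NK cell, 6 B and plasma cell and 5 dendritic cell markers overlapped between the genotypes. The part of these cells in the results was not tested.

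**Figure D5:**
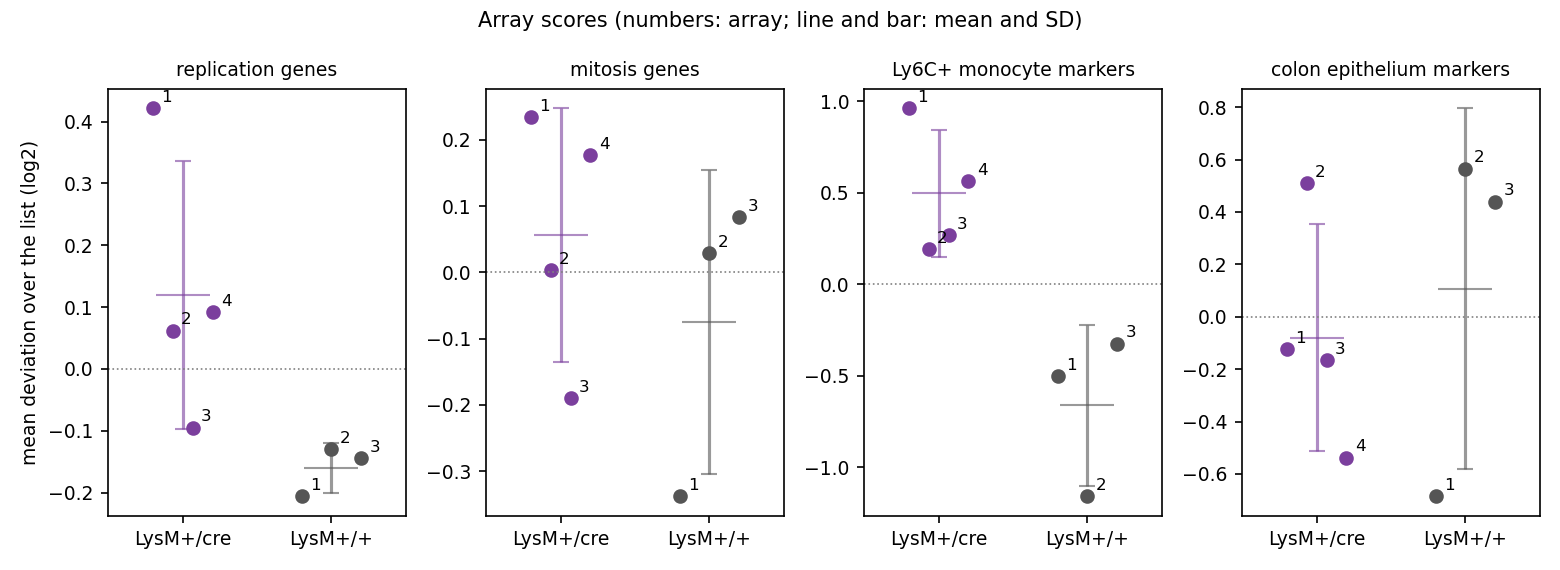
Mean deviation of a list's genes from their means over the 7 arrays (y axis, log2) for 4 lists, with LysM+/cre arrays left of LysM+/+ arrays, points numbered by array, and a line and bar for mean and SD. The replication and Ly6C+ monocyte scores do not overlap between genotypes, and the mitosis score does. Each monocyte marker taken singly overlaps.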

How the data were processed

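Sorted colon macrophages gave total RNA for 7 Affymetrix Mouse Gene 2.0 ST arrays, per the labels. The authors deposited 1 log2 signal for each probe set and array, and the design text names Expression Console as their software. How it corrected background and summarised probes is not stated there.

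Of 41345 probe sets, 23521 carried exactly 1 symbol, which gave 22180 genes. LysM+/cre (4 arrays) was compared with LysM+/+ (3 arrays) by limma 3.58.1 in R 4.3.3 (lmFit, eBayes, two-sided, no covariate), with Benjamini-Hochberg adjustment over all genes. That code was tested on simulated data. The p-values weigh each difference against the spread between these samples. Nothing in the labels says that the samples came from separate mice, so whether this is the spread between mice is unknown. Unadjusted p-values in the text come from the same fit.

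The members, the lists and the tests were chosen with earlier results of these data known. Values per array were to be given for Mcm2, Pcna, Mki67, Top2a, members at an unadjusted p under 0.05 and the member of smallest p in each of 8 role groups, and up to 3 genes per further list. Cdkn1a and Ccnd1 were to be named in any case. Mcm4, Cdt1, Uhrf1, Cdc20, Cdkn1b, Fcgr1, Itgam, Ptprc, Cd68, Cx3cr1, Ccr2, Ly6c2, Plac8, Vcan, Chil3, Lgr5, Ascl2, Olfm4, Muc2, Cdh1, Slc26a3 and Dcn values were added after they were seen. In all, 16 alternatives were run.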

Additional observations from a re-analysis of the deposited data

Results flagged for a closer look

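Among 53 sets of 4 LysM+/cre values examined, 5 had an array whose gap to its nearest neighbour took up 0.846 or more of the range of the group. Chance gives about 1 in 20 past that value for normally distributed values, which the repeated values of Cenpe and Plk1 are not. Aurkb was lowest on LysM+/cre array 3, at 6.20 against 6.80 to 6.91 on the other LysM+/cre arrays. Plk1 was highest on LysM+/cre array 2, at 6.75 against 6.56 to 6.57. Cenpe was lowest on LysM+/cre array 3, at 5.39, where the other LysM+/cre arrays all read 5.45. E2f8 was highest on LysM+/cre array 4, at 7.04 against 6.60 to 6.66. Btg2 was lowest on LysM+/cre array 3, at 10.01 against 10.42 to 10.49.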

How the results depend on the processing

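The median difference of replication genes stayed above 0 under all 16 alternatives. For all members together it ranged from 0.11 without LysM+/+ array 1 to 0.33 without LysM+/cre array 3, and was 0.12 without LysM+/cre array 1. The mitosis median ranged from -0.039 to 0.19 with 1 array left out, and the excess of the replication median from 0.12 to 0.36. Members at an unadjusted p under 0.05 numbered 3 to 10 higher and 0 to 2 lower with 1 array left out. The 10 came without LysM+/cre array 3, when Birc5 and Kif20a were among them. 1 member was lower after quantile normalization (Pcna) and 1 with the replicate block (Cdc6). Genes at that threshold numbered 1693 to 2779 with 1 array left out. Without moderation of the variance 2 genes and 1 member, Gmnn, passed the adjustment over all genes, and under every other alternative 0 did.

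Sign changes occurred in 12 members, 11 of them mitosis genes, and the cause was not tested. No share of sign changes over all genes is given here. Some of the 12 lay near 0 with all arrays, such as Tpx2 (0.0024), and others did not, such as Ube2c (0.28). With 1 array left out the differences ran from -0.058 to 0.17 for Ccne1, -0.11 to 0.44 for Ccna2, -0.17 to 0.24 for Ccnb2, -0.15 to 0.072 for Foxm1, -0.14 to 0.098 for Aurkb, -0.073 to 0.36 for Bub1, -0.037 to 0.18 for Cdc20, -0.083 to 0.50 for Ube2c, -0.025 to 0.53 for Kif11, -0.25 to 0.14 for Cenpe, -0.085 to 0.087 for Tpx2 and -0.092 to 0.45 for Top2a. Cenpe was 0.0030 after quantile normalization and 0.0071 with array weights. Ccnd1 ran from -0.36 to 0.35 with 1 array left out and was 0.062 with array weights. The medians of further mitosis genes ran from -0.019 to 0.11 and of brake genes from -0.049 to 0.021 with 1 array left out, and the brake median was 0.011 with array medians set equal and 0.0039 with only genes above the median gene. Alternatives for these further lists were added after the data were seen.

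Deviations of same-numbered arrays correlated at -0.11, 0.12 and 0.10, and not every array correlated best with its own number. So few pairs cannot decide whether replicate numbers pair the samples. With the replicate block, which leaves LysM+/cre array 4 without weight, 2139 genes had an unadjusted p under 0.05, 6 members were higher (Mcm4, Cdt1 and Rrm1 came in and Mcm2 and Mcm5 dropped out), and the medians were 0.33 for replication and 0.13 for mitosis genes, with Bub1 at -0.073 and Tpx2 at -0.017.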
